A study of Mus musculus with 14 samples.

Results

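Prmt5 loss was examined in the Ter119-negative cells of mouse fetal liver, at stage E14.5, by comparing 2 knockout (KO) with 2 wild-type (WT) RNA sequencing libraries. These 4 libraries, taken by their genotype and sort fraction, belong to a series of 14. KO cells came from Vav-cre;PRMT5fl/fl embryos, whose Prmt5 alleles are floxed and cut by a Cre recombinase that the Vav promoter drives across the blood lineages. WT cells came from PRMT5fl/fl embryos, which carry the same floxed alleles without Cre. KO A and KO B came from mice 1 and 2, and WT A and WT B from mice 3 and 4. No agent was given to any of them per the labels, and all were sorted as negative for Ter119, a surface antigen of maturing red cells. A fraction defined by the absence of 1 antigen is a mixture: early erythroid cells, stem and progenitor cells, granulocyte, monocyte, macrophage and lymphoid cells, and some non-blood cells. Total RNA was sequenced after removal of ribosomal RNA, and the 4 libraries held between 22381074 and 27620734 counts. Mitochondrial mt-Rnr2 was the most abundant gene in each, with 11.0% to 13.3% of counts. KO library B held 372 CPM of Xist and no counts of the Y-linked Ddx3y, Kdm5d, Uty and Eif2s3y, and the other 3 libraries held at most 0.990 CPM of Xist, so sex differed between the libraries of the KO group. The other 4 fetal libraries, of the Ter119-positive fraction, entered the fit for its estimate of spread and are in no comparison. They so also entered its scaling and its filter on low counts. Of these, KO A and KO B came from mice 1 and 2, and WT B from mouse 4, as in the Ter119-negative fraction. Ter119-positive WT A came from mouse 5. The main fit had no term for mouse and took libraries of the same mouse as independent.

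PRMT5 is the main type II arginine methyltransferase. With its partner WDR77 it places symmetric dimethyl marks on histones and on the Sm proteins that build the small nuclear ribonucleoproteins of the spliceosome. The tumour suppressor p53 is a transcription factor that switches on genes of cell cycle arrest, cell death and DNA repair, and its activity is held down by the proteins MDM2 and MDM4. Fetal liver is the main site of red cell production before birth, and its macrophages sit at the centre of islands of maturing erythroblasts and engulf the nuclei they shed.

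Prmt5 (ENSMUSG00000023110, GRCm38 chr14:54507187-54517525, minus strand, protein coding) had 4.51 and 4.26 CPM in KO A and KO B, against 52.3 and 51.8 CPM in WT A and WT B. CPM relates each count to its TMM-scaled library size, and by that measure the means were 4.38 ± 0.179 and 52.0 ± 0.347 CPM (SD, n = 2 each). The log2 fold change, KO over WT, was -3.57 (SE 0.15, edgeR adjusted p = 1.45e-07). Gene-level counts do not separate the floxed exons from the rest of the transcript, nor cells that Cre did not reach from the others. Of the other arginine methyltransferases, Prmt1, the main type I enzyme, had 82.4 and 80.6 CPM in KO libraries against 60.6 and 61.0 CPM in WT libraries (log2 fold change 0.42, SE 0.11, edgeR adjusted p = 0.0182). Carm1, which methylates histone H3, had 32.8 and 28.6 CPM in KO libraries against 42.7 and 37.4 CPM in WT libraries (-0.39, SE 0.11, edgeR adjusted p = 0.0314). Prmt3, a methyltransferase of ribosomal protein S2, had 18.2 and 18.2 CPM in KO libraries against 26.2 and 23.1 CPM in WT libraries (-0.44, SE 0.13, edgeR adjusted p = 0.0363). Leaving out single libraries ended these calls: the adjusted p of Prmt1 lay between 0.13 and 0.145, that of Carm1 was 0.21 without KO B and 0.195 without WT A, and that of Prmt3 lay between 0.0565 and 0.217. Prmt2, Prmt6, Prmt7, Prmt10 and Ndufaf7 did not pass the test. Within the methylosome and the Sm assembly machinery, 3 of 22 genes were lower and none higher: Prmt5 itself, its cofactor Wdr77 (53.8 and 46.2 CPM in KO libraries against 63.6 and 61.9 CPM in WT libraries, log2 fold change -0.33) and Gemin4 of the SMN complex (26.1 and 19.1 against 34.9 and 34.9 CPM, -0.63). Gemin4 lost its call without KO B (adjusted p = 0.0631). Wdr77 lost it without KO B, WT A or WT B (0.279, 0.159 and 0.099).

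Across the 15566 genes tested, 2976 were called at an edgeR adjusted p under 0.05, which is 19.1%. Of these 1490 (9.57%) were higher and 1486 (9.55%) lower in KO, and these percentages are the background for every count below. The median log2 fold change over all genes tested was 0.01. Both KO libraries lay above both WT libraries in 31.5% of the genes tested and below both in 31%, so lack of overlap was common. With 1 library left out, 1450 to 1788 genes were called: 1788 without KO A, 1450 without KO B, 1580 without WT A and 1545 without WT B. Genes named as having risen or fallen from here on kept their calls when any of the 4 libraries was left out, unless the text says otherwise.

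**Figure D1:**
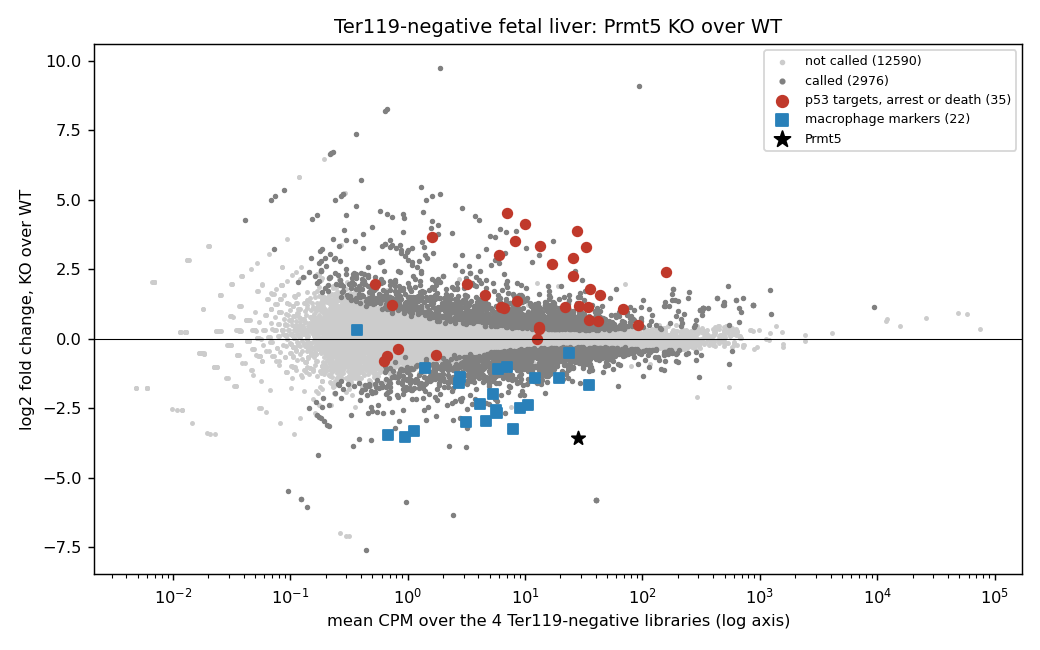
Log2 fold change, KO over WT, against mean CPM over the 4 Ter119-negative libraries (log axis), 1 point per gene tested; dark grey marks the 2976 genes called. Targets of p53 of the arrest and death lists lie mostly above 0, macrophage markers mostly below, and Prmt5 at -3.57.

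Target genes of p53 rose in KO cells. Of the arrest and feedback targets 16 of 19 tested were higher and none lower, of the death targets 13 of 16 were higher and none lower, and of the repair and metabolism targets 6 of 13 were higher and 1 lower. Median log2 fold changes were 1.37, 1.37 and 0.45. Cdkn1a, which encodes the cyclin-dependent kinase inhibitor p21, had 48.6 and 55.3 CPM in KO libraries against 5.66 and 1.29 CPM in WT libraries (log2 fold change 3.87, SE 0.41, edgeR adjusted p = 6.88e-05). Both KO libraries lay above both WT libraries, and WT A lay above WT B.

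Promoters of these genes were searched for the 10-base p53 half-site, and the promoters below show it in capitals for Cdkn1a and for Ccng1, a cyclin G gene that p53 induces. Each is 300 bases from the RefSeq promoter table on GRCm38.p6, from 250 before to 50 after an annotated start, read 5′ to 3′ on the gene's strand. The first is at 1 of 2 Cdkn1a starts in the table (chr17:29090729-29091028, plus strand), and the second is that of Ccng1 (chr11:40755237-40755536, minus strand).
Cdkn1a: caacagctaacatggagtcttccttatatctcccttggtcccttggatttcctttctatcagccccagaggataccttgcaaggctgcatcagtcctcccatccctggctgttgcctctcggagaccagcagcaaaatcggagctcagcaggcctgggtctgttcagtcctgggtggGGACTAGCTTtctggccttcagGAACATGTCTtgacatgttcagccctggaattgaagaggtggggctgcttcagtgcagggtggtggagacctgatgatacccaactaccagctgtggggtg
Ccng1: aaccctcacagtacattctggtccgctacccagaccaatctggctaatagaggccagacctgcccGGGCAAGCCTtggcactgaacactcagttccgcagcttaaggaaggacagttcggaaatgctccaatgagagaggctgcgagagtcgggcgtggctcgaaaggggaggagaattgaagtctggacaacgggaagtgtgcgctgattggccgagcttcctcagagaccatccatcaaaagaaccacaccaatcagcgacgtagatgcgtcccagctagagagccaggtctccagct
The Cdkn1a stretch held 2 half-site matches and the Ccng1 stretch 1. The half-site was found in 10 of the 17 arrest and feedback genes with a promoter in the table, in 2 of 11 death genes and in 1 of 9 repair genes. The share was 9.55% of all 27025 genes there, 8.12% of those tested and 10.3% of all those called higher. The consensus reads the same on both strands. Among the arrest and feedback genes it was in 8 of 14 called higher and in 2 of 3 not called. A match describes these letters and is not evidence of binding.

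Negative regulators of p53 were among the genes that rose. Mdm2, the ubiquitin ligase for p53, had 51.8 and 60.1 CPM in KO libraries against 17.9 and 14.2 CPM in WT libraries (log2 fold change 1.80, SE 0.17, edgeR adjusted p = 2.95e-05). Mdm4, the related inhibitor, whose pre-mRNA splicing depends on PRMT5 in mouse neural progenitors, had 94.1 and 90.4 CPM in KO libraries against 43.2 and 43.8 CPM in WT libraries (1.08, SE 0.10, adjusted p = 3.76e-05). Gene-level counts do not tell its isoforms apart. Trp53 itself had 112 and 102 CPM in KO libraries against 79.4 and 72.0 CPM in WT libraries (0.50, SE 0.11, adjusted p = 0.00822), a call lost without KO A (0.081) and without WT B (0.122). Ccng1 had 238 and 298 CPM in KO libraries against 63.0 and 38.1 CPM in WT libraries (log2 fold change 2.41). Gtse1, which shuttles p53 out of the nucleus, had a log2 fold change of 1.56. Mdm4, Ccng1, Gtse1 and Trp53 were picked from the list after their values were seen.

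Arrest genes covered stress kinases and metabolic sensors. Plk2, a polo-like kinase, had 15.5 and 14.9 CPM in KO libraries against 1.87 and 0.692 CPM in WT libraries (log2 fold change 3.53). Sesn2, a leucine sensor that restrains mTORC1, had 42.9 and 42.3 CPM in KO libraries against 10.4 and 7.40 CPM in WT libraries (2.25). Trp53inp1, a stress-induced autophagy regulator, had 25.5 and 32.9 CPM in KO libraries against 5.41 and 3.53 CPM in WT libraries (2.70). In each of the 3 genes the groups were several fold apart. Ddit4, another mTORC1 inhibitor, from the amino acid and ATF4 list, had 9.79 and 11.8 CPM in KO libraries against 1.36 and 1.17 CPM in WT libraries (3.08). That list as a whole had 3 of 27 members higher and 2 lower, with 1 higher without KO B or WT B, 2 without KO A, and 1 lower without KO A, WT A or WT B.

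Death receptors and mitochondrial death genes rose together. Eda2r, a receptor of the tumour necrosis factor family, had 17.4 and 20.6 CPM in KO libraries against 1.95 and 0.119 CPM in WT libraries (log2 fold change 4.12, SE 0.48, edgeR adjusted p = 0.000151). Tnfrsf10b, the mouse TRAIL death receptor, had 11.4 and 10.1 CPM in KO libraries against 1.75 and 0.859 CPM in WT libraries (3.02). Phlda3, an inhibitor of AKT, had 23.1 and 25.8 CPM in KO libraries against 3.42 and 1.36 CPM in WT libraries (3.32). All 3 were far above WT in both KO libraries. Eda2r is X-linked, and the part of sex in its level was not tested. Among the BCL2 family 3 of 14 members were called, all higher. Bax, the pore former of the mitochondrial outer membrane, had 37.8 and 42.6 CPM in KO libraries against 19.0 and 16.9 CPM in WT libraries (1.16). The others were the BH3-only genes Bbc3 (5.22 and 5.05 against 1.32 and 1.26 CPM, 1.98) and Pmaip1 (5.75 and 7.85 against 2.35 and 2.19 CPM, 1.58). No other member passed the test.

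The repair and metabolism targets were mixed. Ercc5, the XPG nuclease of nucleotide excision repair, had 43.4 and 46.8 CPM in KO libraries against 10.1 and 6.56 CPM in WT libraries (log2 fold change 2.43). Cpt1c, a carnitine palmitoyltransferase relative, had 7.78 and 7.50 CPM in KO libraries against 0.448 and 0.334 CPM in WT libraries (4.26). Polk, a translesion polymerase, had 11.9 and 12.02 CPM in KO libraries against 4.46 and 3.46 CPM in WT libraries (1.59). Fdxr, the mitochondrial ferredoxin reductase, went the other way, with 3.08 and 2.58 CPM in KO libraries against 8.23 and 8.71 CPM in WT libraries (-1.58, SE 0.19, edgeR adjusted p = 0.000195).

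Levels of these targets differed between the WT libraries too. Of the 35 members of the 3 lists called higher, 31 had more CPM in WT A than in WT B, against 56.9% of all genes called higher. Zmat3, an RNA-binding protein that p53 induces, had 57.7 and 62.6 CPM in KO libraries against 9.11 and 2.93 CPM in WT libraries, and Zfp365, a zinc finger protein of the death list, 12.5 and 14.7 CPM against 1.05 and 0.0477 CPM. The size of the fold change therefore depended on which WT library was used. For Cdkn1a the log2 fold change was 5.30 without WT A and 3.15 without WT B. For Zmat3 it was 4.32 and 2.68, and for Zfp365 7.98 and 3.64. What sets WT A apart was not tested.

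**Figure D2:**
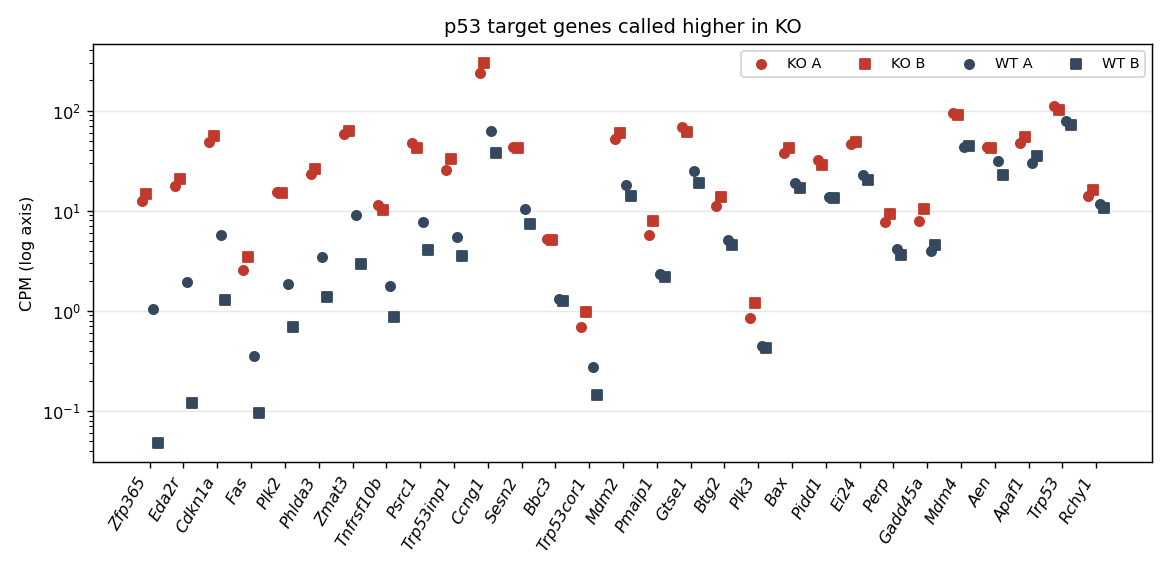
CPM (log axis) of the arrest and death targets of p53 called higher in KO, 1 point per library, ordered by fold change, with KO A and KO B to the left of WT A and WT B. Both KO points lie above both WT points for every gene shown, as in 31.5% of all genes tested. For Zfp365, Eda2r, Cdkn1a and Zmat3 WT A lies above WT B.

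Other large rises came in genes of varied function. By the naming rule they included Prrg4, a transmembrane Gla protein (10.1 and 12.7 CPM in KO libraries against 1.07 and 0.358 CPM in WT libraries, log2 fold change 3.95), Ak1, an adenylate kinase (8.96 and 11.8 against 1.11 and 0.477 CPM, 3.67), and Fat1, a protocadherin (19.7 and 17.5 against 2.45 and 1.38 CPM, 3.26). Fam198b, Hecw1 and Cep170b followed the same pattern, with 3.86, 3.68 and 3.09. Chosen after their values were seen, Aqp3, a water and glycerol channel, had 20.6 and 26.2 CPM in KO libraries against 3.58 and 2.12 CPM in WT libraries (3.02), and Gpx3, the secreted glutathione peroxidase, 26.3 and 31.4 against 5.31 and 3.96 CPM (2.63). Tcrg-C1, a constant segment of the T cell receptor gamma locus, had 9.27 and 16.3 CPM in KO libraries against 1.48 and 0.239 CPM in WT libraries (3.83, SE 0.48, edgeR adjusted p = 0.000241). It was the only one of 7 tested T and NK cell genes to be called. Cd3e, a defining subunit of the T cell receptor complex, had no counts in any of the 4 libraries, and Cd3d had 3 and 2 counts in KO libraries against 2 and 1 in WT libraries. Xist had a log2 fold change of 9.08, yet its 0.990 and 372 CPM in KO A and KO B against 0.448 and 0.215 CPM in WT libraries rest on KO B, without which the adjusted p was 0.809. Its call was also lost without WT A (0.126) and without WT B (0.127).

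Macrophage genes fell in KO libraries. Of 22 markers tested 19 were lower and none higher, with a median log2 fold change of -2.16, and 19 or 20 were lower whichever library was left out. Cd5l, a scavenger protein of tissue macrophages, had 1.35 and 1.65 CPM in KO libraries against 14.96 and 13.6 CPM in WT libraries (log2 fold change -3.25, SE 0.34, edgeR adjusted p = 6.37e-05). Adgre1, which encodes the F4/80 antigen, had 3.24 and 3.54 CPM in KO libraries against 16.7 and 18.7 CPM in WT libraries (-2.38). Both KO libraries lay far below both WT libraries for each gene. C1qc and C1qb, subunits of complement C1q, had log2 fold changes of -2.96 and -2.56. Ctss and Lgmn, lysosomal proteases, had -2.67 and -2.48. Csf1r, the receptor for macrophage colony-stimulating factor, had 19.7 and 14.1 CPM in KO libraries against 51.6 and 55.9 CPM in WT libraries (-1.67). Summed over the list, macrophage markers came to 79.5 and 85.8 CPM in KO libraries against 239 and 275 CPM in WT libraries. In RNA from a mixed fraction, fewer cells of a type and less RNA per cell cannot be told apart.

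The granulocyte and monocyte, B lymphoid, and mast cell, basophil and eosinophil lists gave mostly uncalled genes, and more lower than higher calls. Of 24 granulocyte and monocyte genes 9 were lower and none higher (median -0.73), and the list summed to 1186 and 1667 CPM in KO libraries against 2180 and 2343 CPM in WT libraries. Csf3r, the receptor for granulocyte colony-stimulating factor, had 4.84 and 4.12 CPM in KO libraries against 12.3 and 14.3 CPM in WT libraries (log2 fold change -1.57, edgeR adjusted p = 7.63e-05). Ccr2, the chemokine receptor of inflammatory monocytes, had 6.38 and 5.59 CPM in KO libraries against 17.9 and 29.1 CPM in WT libraries (-1.97), and Irf8, a monocyte and dendritic cell transcription factor, 9.43 and 8.35 against 21.9 and 23.2 CPM (-1.34). Among 13 B lymphoid genes 4 were lower and none higher (median -1.24). Rag1, the recombinase of antigen receptor loci, had 1.02 and 1.14 CPM in KO libraries against 4.44 and 5.06 CPM in WT libraries (-2.13), and Ighm 3.46 and 4.15 against 10.1 and 10.8 CPM (-1.45). Only 2 of the 13 were called without KO A and without WT B. Of 13 mast cell, basophil and eosinophil genes 4 were lower, among them Cpa3, the mast cell carboxypeptidase (3.77 and 3.99 CPM in KO libraries against 8.89 and 10.7 CPM in WT libraries, -1.34); 2 were called without WT B. Of 19 megakaryocyte genes 2 were higher and 1 lower, led by the platelet glycoprotein gene Gp5 (13 and 11.0 against 5.97 and 4.01 CPM, 1.26); 1 was called higher without KO B, WT A or WT B, and of those called lower there were 2 without KO A and none without KO B or WT A.

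Of 15 receptor genes 8 were lower and 1 higher, with a median of -1.08, and 7 or 8 were lower with any library left out. None was higher without KO B, WT A or WT B. Both beta chains were lower. Csf2rb, which the receptors for GM-CSF and interleukins share, had 11.1 and 14.2 CPM in KO libraries against 29.0 and 38.7 CPM in WT libraries (log2 fold change -1.42, edgeR adjusted p = 0.000114), and Csf2rb2, the beta chain for interleukin 3 alone in mouse, had 1.40 and 1.86 against 3.21 and 4.08 CPM (-1.15). Csf2ra and Il6ra had -2.25 and -1.22. Csf1r and Csf3r, given above with the macrophage and the granulocyte and monocyte genes, are also among the 8 receptors called lower. Kit, the stem cell factor receptor, looked up after the values were known, had 110 and 96.4 CPM in KO libraries against 103 and 102 CPM in WT libraries, which overlap (0.01, SE 0.12, adjusted p = 0.968). Of 25 stem and progenitor genes 6 were lower and 1 higher. Cd34 had 39.7 and 35.1 CPM in KO libraries against 67.5 and 58.6 CPM in WT libraries (-0.75), and Igf2bp3, a fetal RNA-binding protein, 23.1 and 21.9 against 32.5 and 32.6 CPM (-0.53). Slamf1, the CD150 antigen of stem cells, was the member that rose, with 3.22 and 3.32 CPM in KO libraries against 1.38 and 1.07 CPM in WT libraries (1.40). The count of those lower was 4 without KO B and 3 without WT A.

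Markers of cells outside the blood lineages were called in part, and not all of them are confined to such cells. Hepatoblast genes were lower in 3 of 20 and higher in none (median -0.65), and 19 of the 20 fold changes were negative. Alb, which encodes albumin, had 85.7 and 43.3 CPM in KO libraries against 147 and 93.4 CPM in WT libraries, and Trf, transferrin, 33.6 and 14.7 against 55.9 and 42.7 CPM. KO B was the lowest library for both. The number called lower in that list was 10 without KO A, 0 without KO B, 0 without WT A and 8 without WT B, and Alb (0.241 and 0.27) and Trf (0.223 and 0.186) lost their calls without KO B or WT A. Of 21 endothelial and stromal genes 4 were higher and 5 lower: 3 were lower without KO B or WT A, and 2 were higher without WT B. Cdh5, the cadherin of endothelial junctions, was lower (1.51 and 1.197 CPM in KO libraries against 6.63 and 5.65 CPM in WT libraries, log2 fold change -2.18), as were the scavenger receptor genes Stab1 (5.06 and 3.405 CPM in KO libraries against 12.9 and 12.7 CPM in WT libraries, -1.60) and Stab2 (2.97 and 1.83 against 7.69 and 7.28 CPM, -1.64). Eng, the endoglin gene, which erythroid progenitors also express, was higher (23.5 and 24.5 against 11.5 and 9.92 CPM, 1.16). Col1a2, a collagen gene, was also higher (9.43 and 17.2 against 4.94 and 4.10 CPM, 1.55, edgeR adjusted p = 0.00205). Its calls with single libraries left out are not reported here. Tek, the angiopoietin receptor, was called higher too (5.66 and 5.05 against 3.46 and 2.72 CPM, 0.79), a call lost without KO A (adjusted p = 0.0797) and without WT B (0.113). The part of any of these cells in the other results was not tested.

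**Figure D3:**
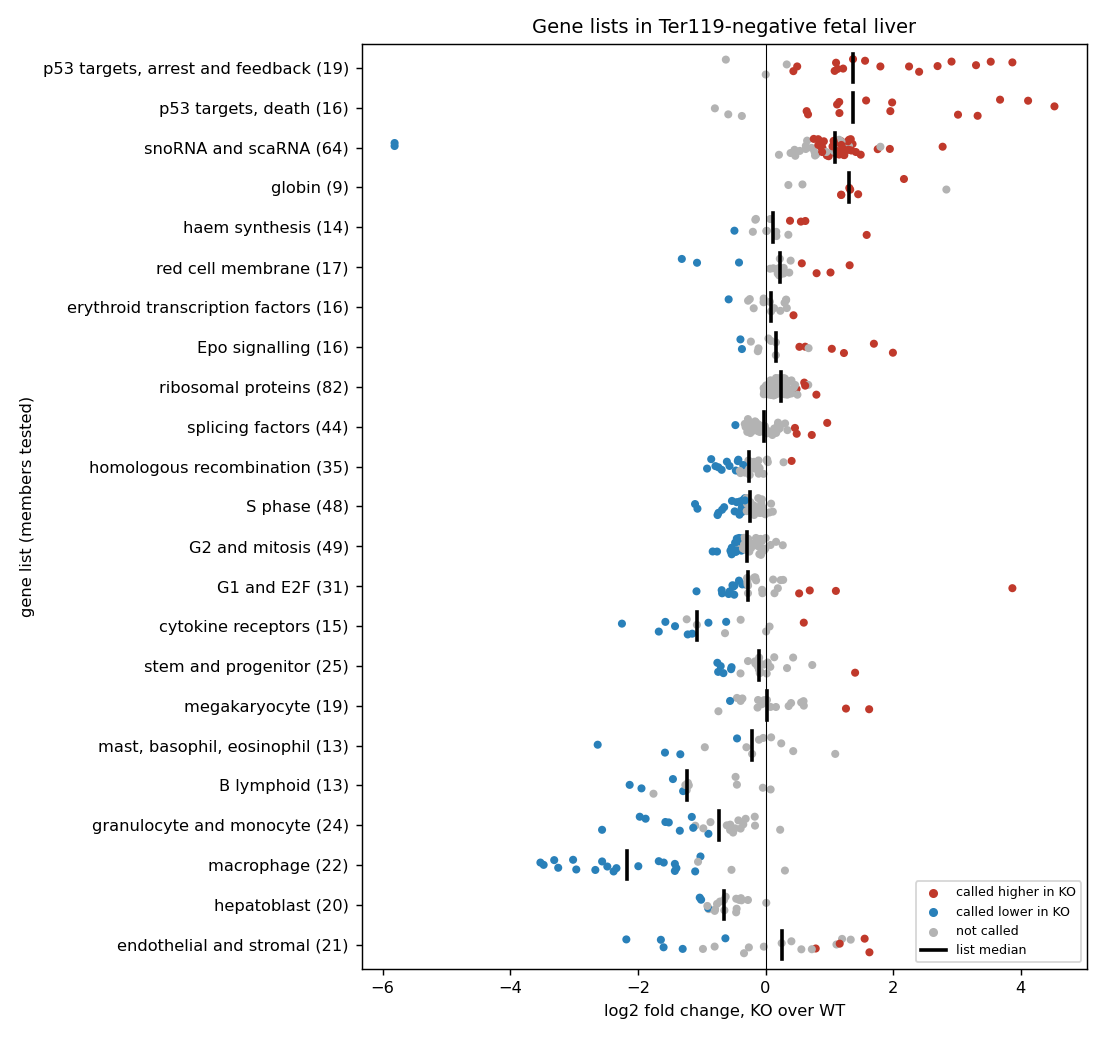
Log2 fold change, KO over WT, of each tested member of 23 gene lists; red and blue mark genes called higher and lower in KO, grey those not called, and black bars the list medians. The p53 arrest and death lists each have a median of 1.37, the macrophage list -2.16, and the cell cycle lists lie slightly below 0.

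Of 16 erythroid transcription factors 1 was higher and 1 lower, neither of which kept its call with each library left out (Gata2, -0.58, 0.152 without KO B and 0.117 without WT A; Foxo3, 0.44, 0.151 to 0.227). Gata1, the master regulator, had 58.3 and 56.4 CPM in KO libraries against 54.4 and 50.1 CPM in WT libraries (log2 fold change 0.13, SE 0.11, edgeR adjusted p = 0.45), and Klf1, which activates adult beta globin, 82.7 and 90.7 against 84.8 and 80.4 CPM (0.07, SE 0.13, adjusted p = 0.76). Gata1 and Klf1 were looked up after the values were known. Globin transcripts were higher: 6 of 9 were called, none lower, and the list summed to 741 and 1346 CPM in KO libraries against 467 and 394 CPM in WT libraries. Hbb-bs, adult beta globin, had 231 and 486 CPM in KO libraries against 141 and 121 CPM in WT libraries (1.45, SE 0.34, adjusted p = 0.0114). KO B carried the higher globin levels, and without KO B 2 of the 9 were called and Hbb-bs was not (0.77, adjusted p = 0.103); without WT B 2 were called as well, and Hbb-bs had an adjusted p of 0.0586.

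Of 14 haem synthesis genes 4 were higher and 1 lower. Alas2, the erythroid first enzyme of the pathway, had 12.5 and 15.3 CPM in KO libraries against 5.00 and 4.25 CPM in WT libraries (log2 fold change 1.58, SE 0.20, edgeR adjusted p = 0.000245); the number called higher was 1 without KO B, WT A or WT B, and none was lower without KO A, KO B or WT A. Of 17 red cell membrane genes 4 were higher and 3 lower. Kel, the Kell antigen protease, had 37.6 and 40.1 CPM in KO libraries against 18.7 and 19.7 CPM in WT libraries (1.02). Icam4, an adhesion molecule through which erythroblasts bind macrophages, had 3.66 and 3.30 CPM in KO libraries against 8.95 and 8.30 CPM in WT libraries (-1.31, SE 0.12, adjusted p = 2.93e-05). The number of membrane genes called lower was 1 without KO A or WT B and 2 without KO B or WT A. Pklr, the red cell and liver pyruvate kinase, had 31.3 and 27.8 CPM in KO libraries against 91.5 and 98.9 CPM in WT libraries (-1.69, SE 0.14, adjusted p = 1.51e-05), while the glycolysis list as a whole had 3 of 21 members lower and none higher, and 1 lower without KO A or WT B and 2 without KO B or WT A.

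Of 16 genes of erythropoietin signalling 6 were higher and 2 lower. Cish and Socs2, feedback inhibitors that STAT5 induces, had 4.87 and 5.67 CPM (Cish) and 3.52 and 4.39 CPM (Socs2) in KO libraries, against 1.34 and 1.29 CPM and 1.81 and 1.55 CPM in WT libraries. Their log2 fold changes were 2.00 and 1.23 (edgeR adjusted p = 6.79e-05 and 0.0027). Epor, the erythropoietin receptor, looked up after the values were known, had 28.4 and 25.2 CPM in KO libraries against 29.4 and 28.4 CPM in WT libraries (-0.11, SE 0.14, adjusted p = 0.632). The number called higher was 3 without KO B or WT B, and none was called lower when any library was left out.

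Genes of DNA replication and cell division were moderately lower. Of 48 S phase genes 17 were lower, of 49 G2 and mitosis genes 17 were lower, and in neither list was any higher. Medians were -0.24 and -0.29. Pold1, the catalytic subunit of DNA polymerase delta, had 35.9 and 34.7 CPM in KO libraries against 73.2 and 78.6 CPM in WT libraries (log2 fold change -1.10, SE 0.11, edgeR adjusted p = 4.6e-05). Tk1, thymidine kinase, had 20.2 and 20.3 CPM in KO libraries against 40.2 and 44.7 CPM in WT libraries (-1.07). Mcm7, a subunit of the replicative helicase, had 107 and 100 CPM in KO libraries against 178 and 171 CPM in WT libraries (-0.75). Top2a, topoisomerase II alpha, had 143 and 146 CPM in KO libraries against 252 and 262 CPM in WT libraries (-0.83, SE 0.14, adjusted p = 0.00129), and Mki67, the proliferation antigen, 209 and 215 against 342 and 376 CPM (-0.76). The 2 groups did not overlap for any of these 5 genes, as in 31% of all genes tested in that direction. Called S phase genes numbered 10 without KO A or without WT A, and 8 without KO B or without WT B. Called mitosis genes numbered 7 without KO A, 9 without WT A, and 5 without either of the B libraries.

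Promoters of the cell cycle lists were searched for the E2F site, written TTTCCCGC, TTTGGCGC, TTTCGCGC or TTTGCCGC, and for the cell cycle homology region (CHR), TTTGAA, on both strands. The first is bound by E2F factors and the second by the DREAM and MuvB complexes, of which DREAM represses cell cycle genes in resting cells. Mcm7 (chr5:138171834-138172133, minus strand, 1 of 2 starts in the table) is shown for the E2F site and Top2a (chr11:99024140-99024439, minus strand) for the CHR, each from the RefSeq table on GRCm38.p6 with matches in capitals.
Mcm7: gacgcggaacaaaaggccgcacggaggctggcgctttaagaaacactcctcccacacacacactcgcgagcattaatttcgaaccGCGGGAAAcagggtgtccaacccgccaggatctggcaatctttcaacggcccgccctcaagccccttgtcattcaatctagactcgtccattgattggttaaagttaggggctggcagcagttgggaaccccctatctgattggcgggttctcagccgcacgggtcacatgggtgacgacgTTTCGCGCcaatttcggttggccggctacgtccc
Top2a: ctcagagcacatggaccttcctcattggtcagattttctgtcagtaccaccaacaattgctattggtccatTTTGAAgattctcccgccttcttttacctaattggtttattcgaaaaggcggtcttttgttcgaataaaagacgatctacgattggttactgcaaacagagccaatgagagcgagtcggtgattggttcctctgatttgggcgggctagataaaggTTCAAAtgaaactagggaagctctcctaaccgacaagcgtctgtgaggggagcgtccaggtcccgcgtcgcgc
Each stretch held 2 matches. The E2F site was found in 16 of the 39 S phase genes with a promoter, against 2.60% of all genes in the table and 4.51% of those tested. It was in 9 of 14 S phase genes called lower and in 7 of 25 not called. The CHR was found in 30 of 39 G2 and mitosis genes, against 20.2% of all genes and 14.48% of those tested, and in 13 of 14 called lower and 17 of 25 not called. Among all genes called lower with a promoter in the table, 6.26% had the E2F site and 15.9% the CHR. These are counts of letters, with no test, and a gene with several starts counts once if any of them matches.

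Regulators of the G1 phase moved both ways, with 4 of 31 higher and 11 lower. Besides Cdkn1a, the retinoblastoma gene Rb1, a brake on E2F, was higher (29.1 and 34.7 CPM in KO libraries against 15.7 and 14.0 CPM in WT libraries, log2 fold change 1.10, edgeR adjusted p = 0.000511). E2f8, a repressor E2F, had 19.7 and 18.1 CPM in KO libraries against 30.4 and 30.4 CPM in WT libraries (-0.69). Tfdp1, a dimer partner of several other E2F factors, had 57.9 and 59.1 against 82.5 and 81.7 CPM (-0.49). The number lower was 6 without KO A or KO B, 5 without WT A and 7 without WT B, and 2 were higher without KO B. Genes of homologous recombination were lower in 12 of 35 and higher in 1. Brca2, a tumour suppressor of the pathway, had 21.8 and 20.99 CPM in KO libraries against 34.9 and 38.9 CPM in WT libraries (-0.78, SE 0.11, adjusted p = 0.000475), and Rad54l, a DNA translocase, 18.8 and 18.1 against 26.6 and 29.6 CPM (-0.61). The number lower was 6 without KO A or WT B, 5 without KO B and 7 without WT A, and none was higher with any library left out. Of 12 Fanconi anaemia genes, which repair crosslinks between DNA strands, 4 were lower, among them Fanca (18.2 and 16.5 CPM in KO libraries against 26.0 and 29.5 CPM in WT libraries, -0.68), and 2 were lower without KO B. Of 18 genes of the TIP60 acetyltransferase complex 1 was higher and 1 lower, near the background, and neither kept its call with each library left out.

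Small nuclear RNAs, the RNA cores of the spliceosome, were higher in KO libraries. Of 47 snRNA genes tested 42 were higher and none lower, with a median log2 fold change of 1.38, and their summed level was 14320 and 15730 CPM in KO libraries against 5095 and 7432 CPM in WT libraries. Of 132 snoRNA genes, which guide modification and processing of ribosomal RNA, 83 were higher and 5 lower, with 10770 and 13080 CPM in KO libraries against 4836 and 7240 CPM in WT libraries. Of 17 scaRNA genes, which guide modification of snRNAs, 9 were higher and none lower. Rnu12, the U12 RNA of the minor spliceosome, had 66.5 and 58.5 CPM in KO libraries against 20.4 and 34.5 CPM in WT libraries (log2 fold change 1.19, SE 0.27, edgeR adjusted p = 0.00928). Rnu1a1, a U1 gene, had 391 and 498 CPM in KO libraries against 157 and 262 CPM in WT libraries (1.09), and Rnu3a, a U3 snoRNA gene, 1695 and 2058 against 469 and 641 CPM (1.76). A shorter record that overlaps Rnu3a went the other way, with 131.5 and 200.4 against 343.7 and 526 CPM. Both records together had 1827 and 2258 CPM in KO libraries against 812 and 1167 CPM in WT libraries. Rnu12 and Rnu1a1 were chosen after their values were seen. Near-identical copies share reads in these families, so values of single copies are uncertain.

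These counts changed when a trend on transcript length was removed and when WT A was left out. The RNAs of these classes are short, so class and length cannot be told apart here. After removal of a per-library trend on transcript length, 19 snRNA and 13 snoRNA genes were called higher, and Rnu12 (0.43, adjusted p = 0.151) and Rnu1a1 (adjusted p = 0.161) were not. Without WT A, the numbers were 27 and 38, and Rnu12 had an adjusted p of 0.0729. Without WT A 4 scaRNA genes were higher, without KO B 5, and after removal of the length trend 2. Short noncoding RNAs of the snRNA, snoRNA, scaRNA, ribozyme and miscellaneous classes took 31.8% and 35.4% of all counts in KO libraries against 18.7% and 25.9% in WT libraries, and WT A was the lowest. Protein-coding genes took 50.5% and 44.1% of counts in KO libraries against 63.6% and 54.8% in WT libraries. Other abundant short RNAs were also above WT in both KO libraries without passing the test: Rn7s1, a signal recognition particle RNA, had 63560 and 87360 CPM in KO libraries against 31040 and 51480 CPM in WT libraries (0.87, adjusted p = 0.0749), and Rn7sk, which holds back transcription elongation, had a log2 fold change of 0.73 (adjusted p = 0.107). Rmrp, an RNA of the mitochondrial RNA processing ribonuclease and the most abundant gene called higher, had 10370 and 15320 CPM in KO libraries against 4909 and 6618 CPM in WT libraries (1.16, adjusted p = 0.00882), a call lost after removal of the length trend (0.0557), without KO B (0.0682) and without WT A (0.0641). The part of library composition in these results was not tested.

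**Figure D4:**
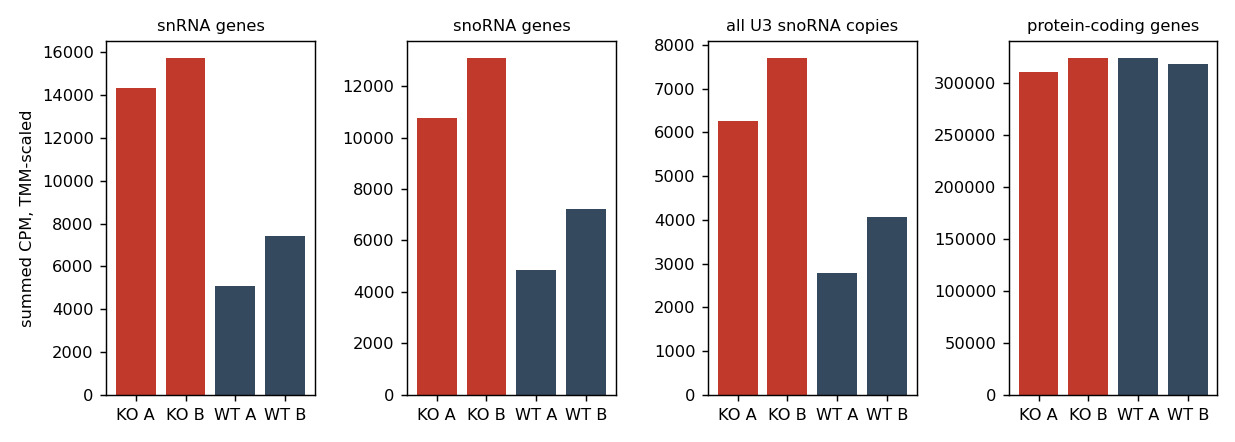
Summed CPM, TMM-scaled, of all tested snRNA genes, snoRNA genes and protein-coding genes, and of all U3 snoRNA copies, 1 bar per library and 1 axis per class, each from 0. KO A and KO B are above WT A and WT B for snRNA, snoRNA and U3, with WT A lowest; protein-coding sums lie between 310700 and 323900 CPM.

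All 5 snoRNA genes called lower were U3 records, each lying on top of another U3 record. On chromosome 11 each of 4 U3 loci carries 2 gene records that share a start and differ by 1 base at the 3′ end. The record Rnu3b1 (GRCm38 chr11:87443237-87443452, plus strand) is printed from the GENCODE M21 transcripts with that last base in capitals, and Rnu3a (chr10:40258467-40258680, plus strand), which has a partner record of the same kind, is printed beside it. The shorter record at each of these places has the same sequence without the capital, and so has Rnu3b4, a shorter record at a neighbouring chromosome 11 locus.
Rnu3b1: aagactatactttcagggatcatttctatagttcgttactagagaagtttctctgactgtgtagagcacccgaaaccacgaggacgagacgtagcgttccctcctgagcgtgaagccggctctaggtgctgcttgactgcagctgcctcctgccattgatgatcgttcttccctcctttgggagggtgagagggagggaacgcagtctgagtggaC
Rnu3a: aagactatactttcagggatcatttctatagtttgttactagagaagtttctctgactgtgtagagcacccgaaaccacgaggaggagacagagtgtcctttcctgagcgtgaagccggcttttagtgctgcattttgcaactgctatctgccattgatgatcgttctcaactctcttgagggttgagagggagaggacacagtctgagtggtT
Each of the longer chromosome 11 records had 1107 and 1359 CPM in KO libraries against 472 and 585 CPM in WT libraries (log2 fold change 1.22, edgeR adjusted p = 0.000733). Each of the shorter ones, Rnu3b4 among them, had 2.83 and 0 CPM in KO libraries against 20.4 and 138 CPM in WT libraries (-5.81, adjusted p = 0.00195). Summed over the longer and shorter records of these loci, U3 came to 4440 and 5437 CPM in KO libraries against 1970 and 2893 CPM in WT libraries. Over all 10 U3 records with counts the sum was 6267 and 7695 CPM in KO libraries against 2782 and 4061 CPM in WT libraries. The shorter records were lower and the longer records and the family total higher in KO libraries, and counts cannot be assigned between records that differ by 1 base.

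Genes that make or use these RNAs changed little as groups. Of 44 splicing factors 4 were higher (9.09%), near the background, and 1 lower (2.27%), under it. Those higher were led by Prpf3, a component of the U4/U6 particle (41.8 and 37.2 CPM in KO libraries against 22.4 and 18.0 CPM in WT libraries, log2 fold change 0.97, SE 0.12, edgeR adjusted p = 0.000198), and Ptbp2, a repressor of exon inclusion (21.7 and 24.6 against 14.6 and 13.5 CPM, 0.73). Of the splicing factors 2 were higher without KO B, WT A or WT B, and none lower without KO A, KO B or WT A. Of 49 ribosome biogenesis genes 3 were higher and 3 lower, with 1 higher with any library left out and 1 lower without KO B or WT A. Nop56, a core protein of box C/D snoRNA particles, had 109 and 104 CPM in KO libraries against 164 and 171 CPM in WT libraries (-0.65, adjusted p = 0.00322), and Polr1c, shared by RNA polymerases I and III, 54.2 and 56.7 against 34.6 and 32.2 CPM (0.73). Of 82 ribosomal protein genes 4 were higher and none lower, and 79 had a positive fold change, with a median of 0.24. None of the 4 was called without KO B or without WT B. Without KO A or WT A 2 were. Replication histones, mitochondrially encoded genes and nuclear genes of oxidative phosphorylation had 1 of 69, 0 of 13 and 4 of 77 members higher, and 1, 0 and 1 lower. No oxidative phosphorylation gene was higher without KO B or WT B and 1 was without WT A, and none was lower without KO A, KO B or WT A. No histone gene was higher without KO A, 2 were lower without KO B or WT A, and none without WT B.

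Protein-coding genes with short introns were called lower more often than others. The 12421 tested protein-coding genes with an intron were put in 8 equal groups by the median intron length of the longest GENCODE M21 transcript. In the group with the shortest introns, up to 319 nucleotides, 20.2% of genes were called lower in KO and 8.04% higher. In the group with the longest, from 4562 nucleotides, 7.86% were lower and 9.40% higher. Across all protein-coding genes 11.3% were lower and 8.93% higher. The share lower was at most 9.36% in each of the 3 groups with the longest introns, while the share higher stayed between 8.04% and 9.74%. Median CPM was 9.75 in the first group and 4.95 in the last, and median GC content of transcripts 55.7% and 47.1%. Within the highest of 4 equal GC classes, 22.1% of short-intron genes and 10.2% of long-intron genes were lower, and within the lowest class 8.62% (58 short-intron genes) and 6.70%. After removal of the length trend the shares lower were 21.7% and 8.11%. They were 14.2% in the first group and 4.18% in the last without KO A, 11.2% and 4.00% without KO B, 13.5% and 4.39% without WT A, and 13.4% and 3.67% without WT B. Genes differ in more than introns, and the counts hold no measure of splicing.

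Some of the largest falls outside the lists lay in such genes. Whether these falls go with intron length or with the mix of cells was not tested. Gpr108, a membrane protein of the Golgi network that the naming rule gave, had 2.09 and 1.94 CPM in KO libraries against 8.48 and 9.52 CPM in WT libraries (log2 fold change -2.16, SE 0.16, edgeR adjusted p = 1.05e-05), with a median intron of 238.5 nucleotides. Cfp, the complement factor properdin, also given by the rule, had 1.98 and 2.00 CPM in KO libraries against 8.93 and 10.1 CPM in WT libraries (-2.25), with 215 nucleotides. The following were chosen after their values were seen. Tecr, an enzyme of very long chain fatty acid elongation, had 14.2 and 12.1 CPM in KO libraries against 36.9 and 38.05 CPM in WT libraries (-1.51), with a median intron of 87.5 nucleotides. Stub1, the CHIP ubiquitin ligase, had 6.57 and 5.85 CPM in KO libraries against 19.9 and 17.8 CPM in WT libraries (-1.60), with 127.5 nucleotides. Tmem147, an endoplasmic reticulum membrane protein, had 7.84 and 7.79 CPM in KO libraries against 22.98 and 23.3 CPM in WT libraries (-1.57), with 85.5 nucleotides. Large falls were also seen in genes with longer introns. Knstrn, a kinetochore and spindle protein with a median intron of 2455 nucleotides, had 5.99 and 6.38 CPM in KO libraries against 17.3 and 18.4 CPM in WT libraries (-1.53), and Taf15, an RNA-binding protein with 1393 nucleotides, 4.70 and 3.38 against 11.7 and 10.9 CPM (-1.48). Among the others that the naming rule gave, Sdc3, Pld4 and Dhrs4 had log2 fold changes of -2.69, -2.03 and -2.02. Ptma, prothymosin alpha and the most abundant gene called lower, had 472 and 512 CPM in KO libraries against 684 and 660 CPM in WT libraries (-0.45, adjusted p = 0.0423), a call lost with each of the 4 libraries left out (0.0792 to 0.167).

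**Figure D5:**
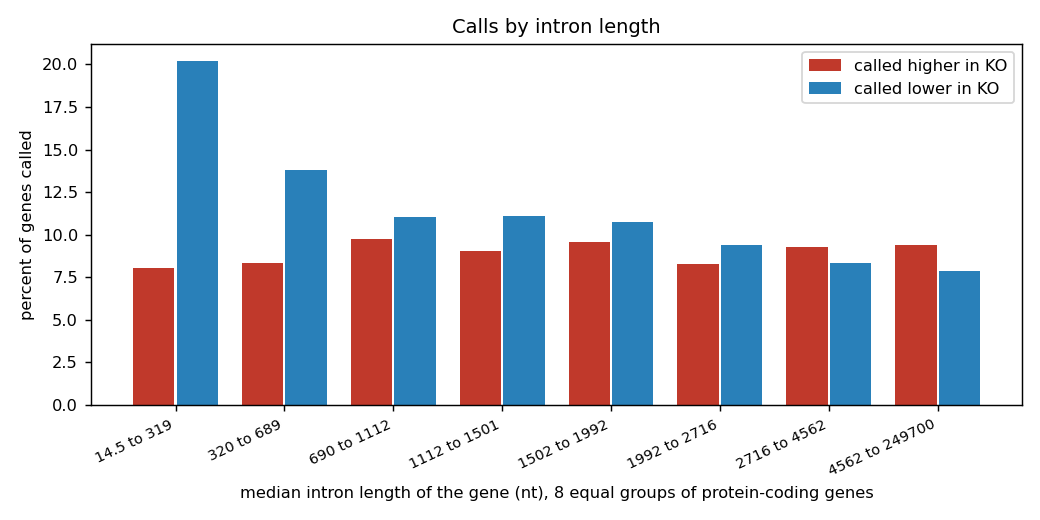
Percent of protein-coding genes called higher and lower in KO in 8 equal groups by median intron length (nucleotides, ranges on the axis), as bars from 0. The share called lower is 20.2% in the group with the shortest introns and 7.86% in that with the longest, and the share called higher stays between 8.04% and 9.74%.

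Genes of immune response and metabolism gave scattered calls. Of 37 interferon genes 6 were lower and 1 higher, with Ifi204, a DNA sensor, at 0.605 and 0.771 CPM in KO libraries against 2.70 and 4.51 CPM in WT libraries (log2 fold change -2.37, edgeR adjusted p = 0.000777); the number lower was 2 without KO A or WT B and 3 without WT A, and none was higher without KO B or WT B. Of 21 antigen presentation genes 6 were lower and 2 higher. Tap1, a peptide transporter, was higher (16.7 and 19.4 CPM in KO libraries against 7.96 and 9.07 CPM in WT libraries, 1.09), and H2-K1, a class I molecule, lower (14.2 and 13.9 against 23.04 and 21.7 CPM, -0.67). The number lower there was 2 without KO A and 2 without WT B, and 1 was higher with any library left out. Of 24 cholesterol genes 3 were lower and 1 higher (2 lower without KO B, and none higher without KO B or WT B), with Insig1, a sterol sensor, at 6.08 and 5.96 CPM in KO libraries against 10.5 and 10.4 CPM in WT libraries (-0.80). Of 20 antioxidant genes 2 were higher and 2 lower, with 1 higher without KO B or WT A and 1 lower without KO B or WT B. Srxn1, sulfiredoxin, rose (0.95), and Hmox1, the haem oxygenase that macrophages use to break down haem, fell (5.47 and 7.71 against 14.9 and 20.5 CPM, -1.42). Of 29 chromatin writers 2 were lower and none higher, Ehmt2 (-0.41) and Dnmt1 (-0.50), neither of which kept its call without KO B (adjusted p = 0.148 for each) or without WT A (0.0786 and 0.0987).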

How the data were processed

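RNA was taken up in Trizol and made into stranded total RNA libraries with Ribo-Zero removal of ribosomal RNA, per the labels' protocols. Per the submitters' processing notes, STAR 2.5.3 and RSEM were run on build GRCm38, also called mm10. Which RSEM version, settings and annotation were used is not given in the sources used here. For each of 45706 genes the authors deposited an RSEM expected count, with reads of similar genes divided by estimate. Of these, 45143 identifiers were in GENCODE M21, which gave types, coordinates and lengths. The deposited expected counts were rounded and fitted with edgeR 4.0.16 in R 4.3.3 (TMM, filterByExpr, quasi-likelihood F test) over all 8 fetal libraries with a mean per group, for the contrast KO minus WT in the Ter119-negative fraction. Benjamini-Hochberg adjustment ran over the 15566 genes tested, with calls under 0.05. Each SE is the size of the log2 fold change over the root of F. Each group has 2 mice, and mice 1, 2 and 4 gave a library to both fractions, which the fit took as independent. Total counts were 22381074 to 27620734 per library, and depth limits genes of few counts. The fit was tested on simulated data.

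The members and the 45 gene lists were chosen with earlier results of these data known, so no list test was run. The rule named Prmt5, per direction the 15 called genes of largest log2 fold change with a mean of at least 5 CPM and no overlap between groups, up to 6 members of smallest p from each list, all arginine methyltransferase and sex-linked genes, and the most abundant called gene per direction. Gene models were left out. Not every gene the rule gave is printed. Promoters came from RefSeq (GRCm38.p6). Alternatives were RLE scaling, no low count filter, DESeq2 1.42.0, a fit of the 4 libraries alone, the replicate letter as a block, limma 3.58.1 voom with a random mouse effect, a length trend removed (lowess, span 0.3; length known for 99.5% of genes tested) and each library left out. A group left with 1 library is assumed to vary like the others. Deviations of libraries with the same letter had r = 0.0047, so letters were not taken as pairs. Some members of the lists are not reported here.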

Additional observations from a re-analysis of the deposited data

How the results depend on the processing

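Against 2976 genes called, the other fits called 2228 (DESeq2) to 3612 (limma-voom). Genes called higher numbered 991 by DESeq2, against 1490, and made up 42.8% of calls under RLE scaling, against 50.1%. With 1 library left out, totals lay between 1450 and 1788, higher calls between 693 and 905 and lower calls between 757 and 883. A fit with 1 library in a group has fewer samples. Prmt5 kept its call under every alternative run, with log2 fold changes between -3.64 and -3.56. Same-letter libraries did not deviate together (r = 0.0047), and with the replicate letter as a block 3009 genes were called, 1498 higher and 1511 lower. Of 237 genes examined singly and called, 132 kept the call under all alternatives, and none lost it under the block.

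Among the genes examined singly, the signs that reversed were those of genes not called, and the cause was not tested. Without the filter, log2 fold changes were -0.0104 for Ndufaf7 and -0.0205 for Kit. RLE scaling gave -0.0219 for Ndufaf7 and -0.0329 for Kit, DESeq2 -0.0215 and -0.0329, and the length trend removed -0.246 for mt-Atp8. With 1 library left out, Ndufaf7 lay between -0.101 and 0.0676, Kit between -0.118 and 0.0582, Klf1 between -0.044 and 0.106, Cma1 between -0.441 and 1.92, Kdm5d between -11.8 and 0.0636, and Uty between -11.8 and 0.249. Depth limits calls among genes of few counts.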
